A study of Mus musculus with 2 samples.

Results

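Tnmd-expressing FAP-like fibroblasts were 298 of the 7658 cell barcodes sequenced from mouse quadriceps and diaphragm. FAP stands for fibro-adipogenic progenitor, the connective tissue progenitor of skeletal muscle. The cells were chosen by their counts of unique molecular identifiers (UMIs, each standing for 1 captured RNA molecule). A barcode needed at least 1000 UMIs in all, at most 5% of them from the mitochondrial genes, at least 1 UMI of Pdgfra, at least 50 of Dcn and at least 2 of Tnmd, with no UMI of Chad or Kera. Barcodes that met the first 4 of these limits are called gate cells here. In quadriceps 77 of 1769 gate cells met the whole rule, and in diaphragm 221 of 1569 did. They are called Tnmd cells below, and gate cells without a Tnmd UMI (1622 in quadriceps and 1284 in diaphragm) are called Tnmd-0 cells.

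The series held 2 single-cell RNA libraries of mononuclear muscle cells, 1 from quadriceps (a limb muscle) and 1 from diaphragm (the respiratory muscle), both of C57BL/6J mice. Neither a treatment nor the age of the animals was given in the labels, and 10 mice were used in all. The muscles were digested with collagenase B and dispase II, the cells at the interface of a Lympholyte-M gradient were taken, and viable cells were sorted on light scatter alone, so no antibody selected the fibroblasts. Cells of several animals were combined before encapsulation, which left 1 library per tissue and no replicates. No test of a condition was therefore possible, no p-value is given, and every interval is a 95% interval for counting error only. The tissue, its animals and its library cannot be told apart.

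Tnmd encodes tenomodulin, a membrane glycoprotein best known from tendons and ligaments, where it marks maturing tenocytes and is needed for normal collagen fibrils. FAPs lie between the muscle fibres, carry the receptor Pdgfra and the surface antigen Ly6a (Sca-1), and produce much of the interstitial matrix of muscle. Tendon fibroblasts share the collagen-binding proteoglycan Dcn with FAPs and differ from them in the transcription factor Scx and in matrix proteins such as Fmod, Comp, Chad and Kera.

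Promoter sequence was read for the genes that the account of these cells turns on, to show what lies before their start sites. RefSeq entries (build GRCm38.p6) were found for 4 of 6 genes looked for, and only the bases before the annotated transcript start are shown, 5′ to 3′ on the strand of the gene. Capitals mark an E-box, the 6-base motif CANNTG that basic helix-loop-helix factors such as Scx bind, which reads the same way on both strands. The windows were chrX:133850758-133850979 (plus strand) for Tnmd, chr1:43730352-43730601 (plus) for 1500015O10Rik (RefSeq symbol Ecrg4), chr11:7213924-7214173 (minus) for Igfbp3 and chr1:134037004-134037253 (plus) for Fmod.
Tnmd: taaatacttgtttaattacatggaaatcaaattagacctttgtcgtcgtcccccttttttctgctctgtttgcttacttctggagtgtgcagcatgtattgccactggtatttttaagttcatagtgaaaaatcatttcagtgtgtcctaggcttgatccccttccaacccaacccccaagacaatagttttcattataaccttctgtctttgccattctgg
1500015O10Rik: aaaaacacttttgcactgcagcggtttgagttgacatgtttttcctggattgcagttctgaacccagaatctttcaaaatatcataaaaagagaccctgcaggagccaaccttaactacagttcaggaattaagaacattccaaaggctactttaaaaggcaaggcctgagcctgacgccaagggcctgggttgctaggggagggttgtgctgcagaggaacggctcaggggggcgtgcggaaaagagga
Igfbp3: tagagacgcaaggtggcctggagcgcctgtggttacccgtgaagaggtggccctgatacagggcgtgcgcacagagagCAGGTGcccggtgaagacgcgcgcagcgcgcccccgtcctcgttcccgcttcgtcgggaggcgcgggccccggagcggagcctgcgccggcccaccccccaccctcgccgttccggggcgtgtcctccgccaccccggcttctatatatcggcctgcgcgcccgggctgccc
Fmod: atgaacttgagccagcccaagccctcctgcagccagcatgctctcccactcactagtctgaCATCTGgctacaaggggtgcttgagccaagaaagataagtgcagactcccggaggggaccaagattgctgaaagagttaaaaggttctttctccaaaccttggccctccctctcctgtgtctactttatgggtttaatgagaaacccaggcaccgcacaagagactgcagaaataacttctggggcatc
The windows of Igfbp3 and Fmod each held 1 E-box, of the forms CAGGTG and CATCTG, and those of Tnmd and 1500015O10Rik held none. Of the 32851 promoters in the table, 66.2% held at least 1 E-box in the 250 bases before the start, so a match in a single window is common. The window of Igfbp3 was rich in G and C (73.2% of bases), while that of Tnmd held 39.2%. A match describes letters only.

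The values that chose the cells are given as a description. Tnmd (ENSMUSG00000031250, chromosome X, 133850980 to 133865577) had 698 UMIs in the 77 quadriceps cells, with a lowest count of 2, a median of 4 and a highest of 45 per cell. In the 221 diaphragm cells it had 1387 UMIs, with a lowest count of 2, a median of 5 and a highest of 47. Just inside the limit, 39 quadriceps and 107 diaphragm cells had 2 to 4 Tnmd UMIs. Just outside it, 58 and 63 gate cells without a Chad or Kera UMI had a single one and belonged to neither class. Tnmd cells made up 4.35% of gate cells in quadriceps (interval 3.45% to 5.41%) and 14.1% in diaphragm (12.4% to 15.9%). A background class, called Ptprc cells below, had at least 2 UMIs of the leukocyte gene Ptprc and should lack Tnmd. It also required no Pdgfra UMI and fewer Dcn UMIs than the gate limit. Leukocyte barcodes with more RNA of these fibroblast genes were thus left out, so its shares are not those of all cells with Ptprc. In this class 4 of 158 quadriceps cells and 0 of 33 diaphragm cells had a Tnmd UMI, and none had 2. By the exact binomial interval 0 of 158 allows a share of up to 2.31%, and 0 of 33 up to 10.6%. Those leukocytes were shallower, with medians of 4036.5 and 6637 UMIs, against 12709 UMIs in the quadriceps and 14019 in the diaphragm Tnmd cells.

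**Figure D1:**
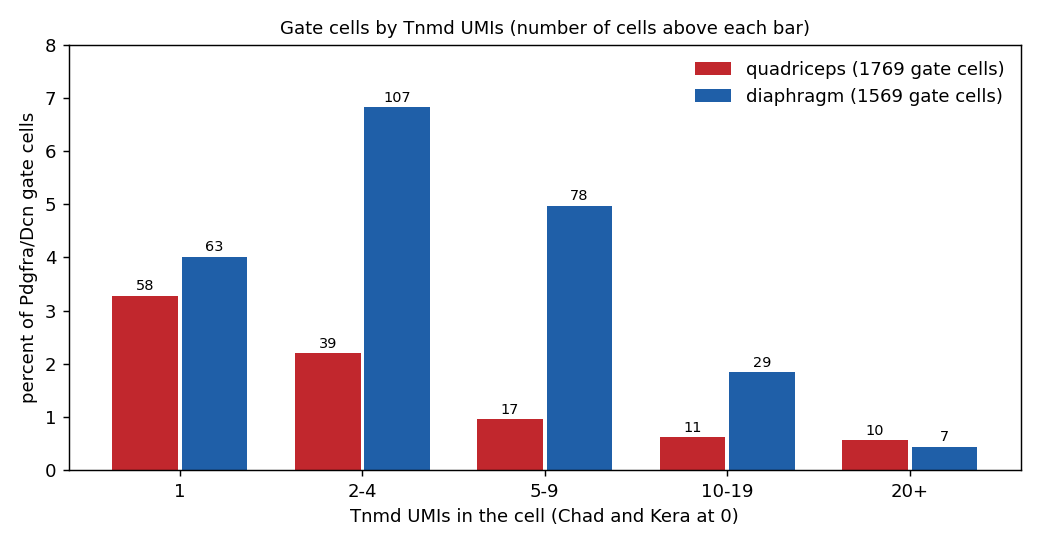
Gate cells of each tissue with 1, 2 to 4, 5 to 9, 10 to 19, and 20 or more Tnmd UMIs and no Chad or Kera UMI, as a percentage of the 1769 quadriceps (red) and 1569 diaphragm (blue) gate cells, with the number of cells above each bar. Diaphragm holds more cells than quadriceps in every class up to 19 UMIs, and the top class holds 10 quadriceps and 7 diaphragm cells.

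Tnmd-0 cells were slightly shallower than Tnmd cells, with medians of 11202.5 UMIs in quadriceps and 13002 in diaphragm. Summed over cells, Tnmd cells had 1039995 UMIs in quadriceps and 3123691 in diaphragm, so 1 UMI stood for 0.962 CPM in quadriceps and 0.320 CPM in diaphragm. Levels are given in CPM (counts per 1e+06), for which the cells of a class were pooled and the UMIs of a gene divided by all of their UMIs. A fold is the log2 ratio of 2 such levels after 1 CPM was added to each, and genes with a mean level of at least 20 CPM over the classes compared were tested against a limit of 2-fold. Intervals of a fold are for the ratio without the added 1 CPM, so the fold of a gene close to 0 in one class can lie below its interval. A pool of cells cannot tell fewer expressing cells from less RNA per cell, so shares of cells are given beside the levels that matter.

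Pdgfra and Dcn chose both classes of cells, so their levels do not check the FAP part of the label. Pdgfra was at 512 CPM in Tnmd cells and 510 CPM in Tnmd-0 cells of quadriceps, and at 497 and 517 CPM in diaphragm. Ly6a, the antigen Sca-1, was at 3202 and 2612 CPM in quadriceps, and at 769 and 1501 CPM in diaphragm, where Tnmd cells held less. Cd34, a surface glycoprotein of FAPs, was at 773 and 1336 CPM in quadriceps and at 1135 and 1261 CPM in diaphragm. Of 18 canonical FAP genes tested in quadriceps none was past 2-fold higher and 4 were lower, where 1.95% of all genes tested were lower, with a list median log2 fold of -0.41. In diaphragm 0 of 16 were higher and 3 lower, against 1.23% of all genes, with a median of -0.27. The median over all genes tested was -0.07 in quadriceps and 0.01 in diaphragm. FAP genes outside the rule were thus measured in the Tnmd cells, and those past the limit were lower than in Tnmd-0 cells. Tek, a receptor of angiopoietins, and Thy1, a surface glycoprotein, were lower in both tissues, at 36.5 against 115 CPM and 108 against 230 CPM in quadriceps, and at 19.5 against 61.2 CPM and 25.9 against 105 CPM in diaphragm.

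Few Tnmd cells showed a UMI of a tenocyte transcription factor. Scx, the basic helix-loop-helix factor of tendon progenitors, had a UMI in 4 of 77 quadriceps and 4 of 221 diaphragm Tnmd cells (5.19% and 1.81%), against 0.370% and 0.467% of Tnmd-0 cells. Mkx, a homeobox factor of tendon, had one in 2 and 8 cells (2.60% and 3.62%), against 0.555% and 1.95%. The tenocyte markers outside the rule summed to 2117 against 132 CPM in quadriceps and to 3460 against 1087 CPM in diaphragm, and the 3 of them tested, Fmod, Thbs4 and Comp, were past 2-fold higher in both tissues. Summed over whole marker lists of other cell types, the leukocyte genes reached 7.69 and 3.84 CPM, the satellite cell genes 26.0 and 33.3 CPM, the muscle fibre genes 26.9 and 24.7 CPM, the adipocyte genes 0.962 and 0 CPM and the mesothelial genes 0.962 and 102 CPM in quadriceps and diaphragm Tnmd cells. Endothelial genes came to 28.8 and 53.1 CPM, and most of this was Kdr, the main VEGF receptor, at 21.2 and 37.8 CPM against 0.633 and 8.72 CPM in Tnmd-0 cells. Smooth muscle and pericyte genes came to 313 and 68.8 CPM against 211 and 48.3 CPM, Schwann cell genes to 96.2 and 36.2 CPM against 103 and 23.5 CPM, and chondrocyte genes to 36.5 and 18.2 CPM against 27.5 and 41.6 CPM. The part of other cells in the results was not tested.

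The 5 genes that came with Tnmd as markers of these cells had been picked on these libraries, so their levels describe the cells and do not support the choice. Lox, lysyl oxidase, which crosslinks collagen and elastin, was at 1031 CPM in quadriceps Tnmd cells (interval 970 to 1094) against 73.2 CPM (69.4 to 77.1) in Tnmd-0 cells. In diaphragm it was at 318 CPM (298 to 338) against 130 CPM (125 to 135), with log2 folds of 3.80 and 1.29. Wisp2, a secreted CCN family protein also known as Ccn5, was at 597 against 42.1 CPM in quadriceps and at 67.5 against 23.6 CPM in diaphragm, with folds of 3.80 and 1.48. Mfap4, a microfibril-associated glycoprotein that binds elastic fibres, was at 448 against 75.2 CPM in quadriceps and at 2602 against 1076 CPM in diaphragm, with folds of 2.56 and 1.27. These 3 genes were past 2-fold in both muscles, by more in quadriceps. In diaphragm 1 cell held 25.1% of the Wisp2 UMIs, and without it the fold was 1.08. Under the alternative settings described below the Wisp2 fold in diaphragm fell to 0.86, so its call there was not kept in all of them.

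Igfbp3 and 1500015O10Rik behaved differently in the 2 muscles. Igfbp3, which binds insulin-like growth factors, was at 879 CPM (interval 823 to 938) against 57.2 CPM (53.8 to 60.7) in quadriceps, a log2 fold of 3.92. In diaphragm it was at 261 CPM (244 to 280) against 130 CPM (125 to 136), just under the limit of 2-fold. 1500015O10Rik, a small secreted peptide precursor also known as Ecrg4 or augurin, was at 236 CPM (207 to 267) against 6.96 CPM in quadriceps, a fold of 4.89. In diaphragm it was at 6.40 CPM (3.91 to 9.89) against 2.79 CPM, seen in 15 of 221 cells, and was below the level at which genes were tested. In the diaphragm cells that met every limit but the mitochondrial one it was at 32.4 against 7.64 CPM.

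In quadriceps 139 of 6089 genes tested were past 2-fold higher in Tnmd cells (2.28%) and 119 were lower (1.95%). In diaphragm 52 of 5916 were higher (0.879%) and 73 lower (1.23%). Of 5570 genes tested in both tissues, 27 were higher in both (0.485%) and 30 lower in both (0.539%). The 27 shared genes were 19.4% of the genes higher in quadriceps and 51.9% of those higher in diaphragm, and the 30 were 25.2% and 41.1% of the lower ones. Of 102 genes higher in quadriceps and tested in diaphragm, 81 had the same sign there, with a median log2 fold of 0.58. The tissues were separate libraries with their own Tnmd-0 cells, and of the 5 barcodes found in both libraries none was that of a Tnmd cell.

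**Figure D2:**
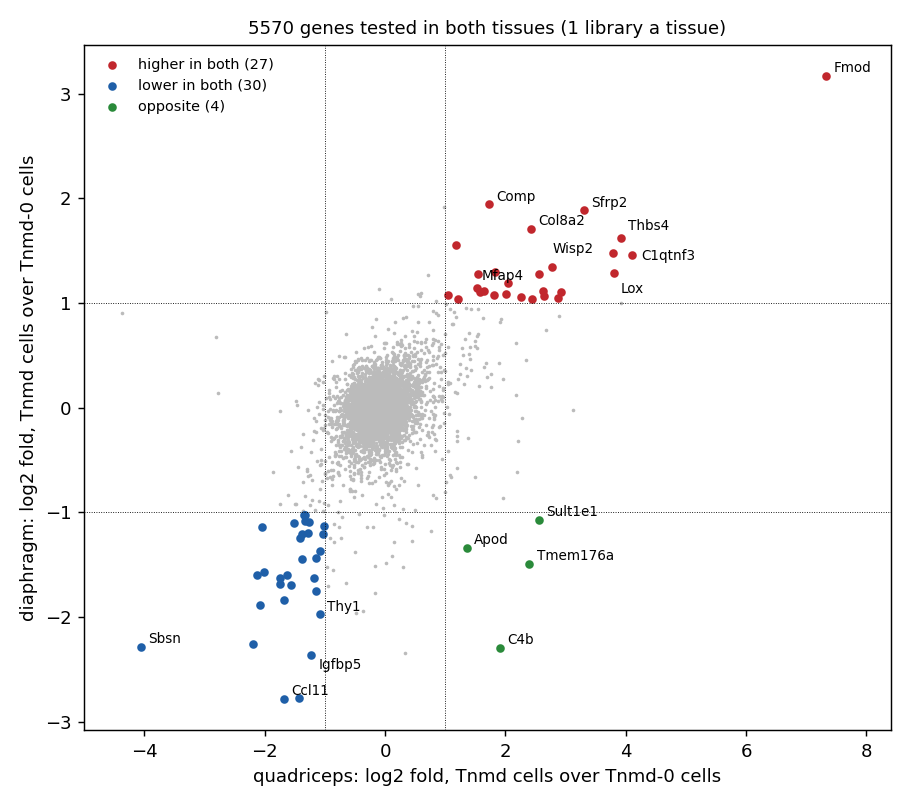
Log2 fold of Tnmd cells over Tnmd-0 cells for the 5570 genes tested in both tissues, quadriceps on the x axis and diaphragm on the y axis, each point a gene and dotted lines at 2-fold. Red genes (27) are higher and blue genes (30) lower in both tissues, and the 4 green genes differ in opposite directions. Fmod lies farthest out at 7.34 and 3.17.

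By the smaller of its 2 folds, Fmod stood first among the shared genes, followed by Sfrp2, Comp, Col8a2 and Thbs4. Fmod, fibromodulin, a proteoglycan that regulates collagen fibril assembly (chromosome 1, 134037254 to 134048277), was at 638 CPM (interval 590 to 688) in quadriceps Tnmd cells against 2.95 CPM (2.23 to 3.83) in Tnmd-0 cells. In diaphragm it was at 113 CPM (102 to 126) against 11.7 CPM (10.1 to 13.4), and the folds were 7.34 and 3.17. Thbs4, a matricellular thrombospondin of tendon and muscle, was at 1249 against 81.9 CPM in quadriceps and at 3228 against 1045 CPM in diaphragm, with folds of 3.92 and 1.63. Comp, cartilage oligomeric matrix protein, was at 149 against 44.4 CPM and at 103 against 26.1 CPM, with folds of 1.73 and 1.95. The Comp values rested on few cells: 1 cell held 40.0% of its UMIs in quadriceps and 1 held 50.5% in diaphragm, and without that cell the folds were 1.04 and 0.95, the latter under the limit.

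Of the whole list of tendon genes, 12 of 20 tested were past 2-fold higher in quadriceps and 7 of 19 in diaphragm, with none lower, and the list medians were 1.81 and 0.66. Of all genes tested 2.28% were higher and 1.95% lower in quadriceps, and 0.879% higher and 1.23% lower in diaphragm. Counts of this and the following lists stand beside these shares. The cells were chosen by a tendon gene and the lists with earlier results of these data known, so the counts are a description. Besides those above, Cilp (a matrix protein that binds TGF-beta) was at 2232 against 412 CPM and 2777 against 1348 CPM, and Fibin (a secreted protein of the fin bud) at 434 against 68.4 CPM and 895 against 428 CPM. Col12a1, a fibril-associated collagen, was at 131 against 30.9 CPM and 204 against 88.7 CPM, and Cpxm2, a secreted carboxypeptidase-like protein, at 504 against 68.2 CPM and 176 against 84.9 CPM. In quadriceps alone the limit was also passed by Thbs2 (788 against 106 CPM), Tnc (tenascin C, 83.7 against 5.27 CPM), Postn (periostin, 378 against 100 CPM), Angptl7 (631 against 71.4 CPM) and Prelp (1006 against 422 CPM). In diaphragm Tnc was at 1.28 against 2.50 CPM and Angptl7 at 83.2 against 84.3 CPM. The list holds genes that FAPs also express, so its summed level was 15597 against 6533 CPM in quadriceps and 19746 against 12720 CPM in diaphragm.

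Small leucine-rich proteoglycans, which bind and space collagen fibrils, were past the limit for 4 of 9 genes tested in quadriceps and 1 of 9 in diaphragm. Ogn (osteoglycin) was at 3316 against 1236 CPM in quadriceps, and Omd (osteomodulin) at 114 against 45.1 CPM, while in diaphragm Ogn was at 1140 against 886 CPM. Fibrillar collagens did not pass the limit in any case (0 of 7 and 0 of 6), with list medians of 0.27 and 0.52. Col1a1, the main chain of type I collagen, was at 4495 against 2573 CPM in quadriceps and 4266 against 2704 CPM in diaphragm, log2 folds of 0.80 and 0.66. Col8a2, a short-chain network collagen, was past 2-fold in both tissues at 44.2 against 7.38 CPM and 91.2 against 27.2 CPM.

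Elastic fibre genes were split. Of 22 tested, 5 were past 2-fold higher and 1 lower in quadriceps, and 3 higher and 1 lower in diaphragm, with list medians of 0.06 and 0.08. Eln, tropoelastin, was at 826 CPM (interval 772 to 883) against 233 CPM (226 to 239) in quadriceps and at 1223 CPM (1184 to 1262) against 497 CPM (487 to 508) in diaphragm, with folds of 1.82 and 1.30. Eln, Mfap4 and Lox were the higher members in both tissues, and in quadriceps Fbln1 (fibulin 1, 781 against 229 CPM) and Emilin1 (153 against 62.0 CPM) joined them. Efemp1, fibulin 3, went the other way, at 140 against 594 CPM in quadriceps and at 80.7 against 301 CPM in diaphragm, with folds of -2.07 and -1.89. Fbn1, fibrillin 1, the core of the microfibril, was at 949 against 1639 CPM and 863 against 1067 CPM, within 2-fold in both.

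Secreted inhibitors of Wnt signalling were among the higher genes, with 3 of 7 listed Wnt modulators past the limit and 1 lower in quadriceps, and 4 of 10 higher and none lower in diaphragm. Sfrp2, a frizzled-related decoy, was at 1828 against 183 CPM in quadriceps and 324 against 87.0 CPM in diaphragm, with folds of 3.31 and 1.88. Dkk2, which binds the Wnt co-receptor, was at 924 against 121 CPM and at 74.3 against 34.0 CPM. In quadriceps 1 cell held 39.1% of the Sfrp2 UMIs, and without it the fold was 2.62. Wnt2, a ligand, was at 4.81 against 46.0 CPM in quadriceps and at 9.28 against 10.9 CPM in diaphragm.

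Other genes higher in both tissues were C1qtnf3, an adipokine of the C1q family (76.0 against 3.48 CPM and 74.0 against 26.2 CPM), and Cldn10, a tight junction claudin (183 against 26.0 CPM and 43.9 against 16.6 CPM). One cell held 46.8% of the C1qtnf3 UMIs in quadriceps, and without it the fold was 3.24 instead of 4.10. Growth factor genes among the 27 were Pdgfa, a ligand of Pdgfra (51.0 against 7.43 CPM and 38.1 against 17.1 CPM), Pdgfd (42.3 against 20.1 CPM and 40.0 against 18.4 CPM) and Vegfc, a lymphatic growth factor (44.2 against 14.2 CPM and 120 against 55.1 CPM). The growth factor genes were singled out after their values were seen. Of the TGF-beta and BMP system 6 of 27 genes were higher and 1 lower in quadriceps, and 0 of 26 passed in diaphragm in either direction.

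Genes lower in Tnmd cells of both tissues were led by Sbsn, suprabasin, a secreted protein, at 15.4 CPM (interval 8.79 to 25.0) against 271 CPM (264 to 279) in quadriceps and 11.8 CPM (8.34 to 16.3) against 61.6 CPM (58.0 to 65.5) in diaphragm. Its folds were -4.05 and -2.29. Ccl11, the eosinophil chemokine eotaxin, was at 344 against 1108 CPM and 66.9 against 466 CPM, with folds of -1.68 and -2.78. Pla1a, a secreted phospholipase, was at 64.4 against 299.8 CPM and 24.7 against 121 CPM. Of the other named genes, Efhd1, a mitochondrial calcium-binding protein, and Lifr, the receptor of leukaemia inhibitory factor, had folds of -1.74 and -2.12 in quadriceps and of -1.68 and -1.60 in diaphragm. Ret, the receptor tyrosine kinase of GDNF family ligands, and Opcml, a cell adhesion protein, had folds of -1.68 and -1.75 in quadriceps and of -1.84 and -1.63 in diaphragm, and the unannotated transcript D630033O11Rik had -2.02 and -1.57. Igfbp5, another insulin-like growth factor binding protein, was at 972 against 2275 CPM and 118 against 608 CPM, opposite in direction to Igfbp3.

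Among chemokine and complement genes, more were lower than higher. Of 20 tested in quadriceps 4 were higher and 8 lower, and of 19 in diaphragm none was higher and 6 were lower, with list medians of -0.39 and -0.55. Cxcl1, a neutrophil chemokine, was at 18.3 against 48.9 CPM in quadriceps and 145 against 396 CPM in diaphragm. Il6, an inflammatory cytokine, was at 7.36 against 40.6 CPM in diaphragm and had no UMI in the quadriceps Tnmd cells. The 4 higher genes in quadriceps were complement genes: C2 (118 against 23.2 CPM), C4b (415 against 110 CPM), C7 (141 against 30.4 CPM) and Cfb (156 against 61.4 CPM). In diaphragm the values of C2, C4b and Cfb were lower in Tnmd cells, at 5.44 against 15.1 CPM, 12.2 against 63.4 CPM and 7.68 against 28.3 CPM. C4b has a near-identical copy in the mouse genome, so its count is uncertain.

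Levels of several named genes differed between Tnmd cells with few and with many Tnmd UMIs. The number of Tnmd UMIs chose the cells and the genes were named for their folds over Tnmd-0 cells, so the orders below are a description. Tnmd cells were divided into those with 2 to 4, 5 to 9, 10 to 19 and 20 or more Tnmd UMIs (39, 17, 11 and 10 cells in quadriceps, and 107, 78, 29 and 7 in diaphragm). Fmod was at 18.8, 114, 590 and 2748 CPM over these classes in quadriceps, and at 20.2, 111, 137 and 1177 CPM in diaphragm. Lox was at 322, 693, 1946 and 2346 CPM in quadriceps and at 240, 378, 352 and 572 CPM in diaphragm. Thbs4 was at 83.7, 218, 2717 and 3940 CPM in quadriceps, where the lowest class was close to the Tnmd-0 cells (81.9 CPM), but at 2461, 3744, 3566 and 6362 CPM in diaphragm. In quadriceps the Tnmd cell with the most Thbs4 UMIs held 35.6% of them, and without that cell the log2 fold over Tnmd-0 cells was 3.31. That cell lay in the class with 20 or more Tnmd UMIs. The higher Thbs4 level of this class over the 10 to 19 class in quadriceps rested on that cell. The 21 quadriceps cells with 10 or more Tnmd UMIs held 95.2% of the Fmod and 93.5% of the Thbs4 UMIs of quadriceps Tnmd cells, and 34.6% of all UMIs. In diaphragm the 36 such cells held 56.8% of the Fmod and 23.3% of the Thbs4 UMIs, and 18.1% of all UMIs, and Thbs4 was already higher in the lowest class.

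Eln was at 239, 727, 1771 and 1568 CPM in quadriceps and at 923, 1086, 2016 and 3160 CPM in diaphragm. Wisp2 was at 153, 579, 1006 and 1361 CPM in quadriceps and at 26.4, 98.2, 67.2 and 277 CPM in diaphragm. Igfbp3 was highest in a middle class, at 513, 989, 2096 and 624 CPM in quadriceps and at 150.2, 429, 260 and 25.2 CPM in diaphragm. Efemp1 had the opposite order, at 289, 19.8, 18.1 and 5.16 CPM in quadriceps and at 123, 50.9, 40.3 and 0 CPM in diaphragm. Ccl11 was at 536, 376, 157 and 0 CPM in quadriceps and at 130, 15.2, 11.2 and 0 CPM in diaphragm. The top class was deeper in quadriceps, with a median of 18208 UMIs against 11477 in the 2 to 4 class, and in diaphragm with 16633 against 12762. Depth alone raises the chance of a higher Tnmd count, and its part in these orders was not tested.

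**Figure D3:**
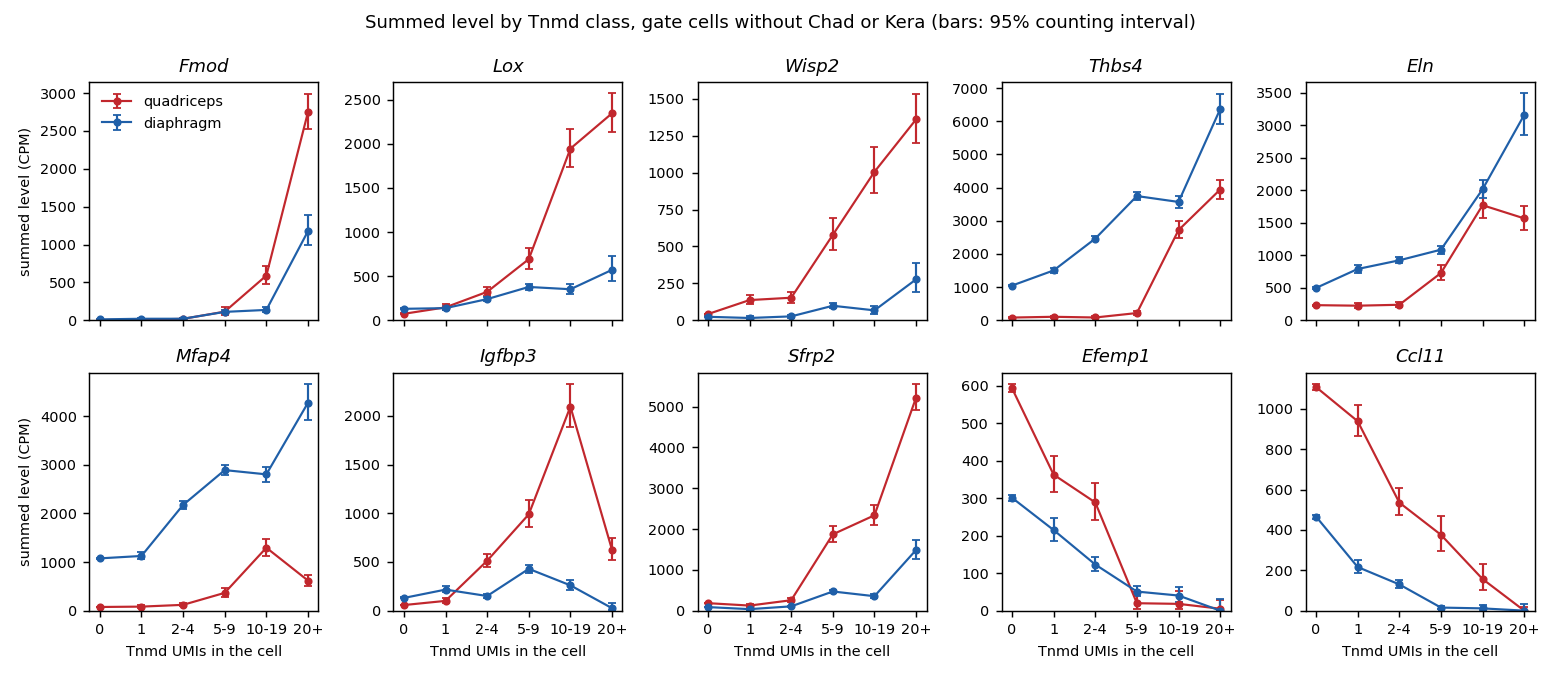
Summed level (CPM) of 10 genes in gate cells without Chad or Kera UMIs, by the number of Tnmd UMIs in the cell (0, 1, 2 to 4, 5 to 9, 10 to 19, 20 or more), in quadriceps (red) and diaphragm (blue), with 95% Poisson intervals. Fmod is highest in the top class, at 2748 CPM in quadriceps and 1177 CPM in diaphragm, Igfbp3 is highest in a middle class, and Efemp1 and Ccl11 are near 0 in the top class of both tissues.

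Nearest neighbours gave a second view of how alike the cells were. For each gate cell the 20 nearest cells of its own library were found over 10 principal components of 2000 variable genes, with Tnmd, Chad, Kera, Pdgfra and Dcn left out. On average 28.6% of the neighbours of a quadriceps Tnmd cell were Tnmd cells, against 2.33% of those of a Tnmd-0 cell and 4.35% of all gate cells. In diaphragm the values were 35.1%, 10.0% and 14.1%. In quadriceps the mean was 12.6% for cells with 2 to 4 Tnmd UMIs, 27.6% for 5 to 9, 57.3% for 10 to 19 and 61.0% for 20 or more. In diaphragm it was 25.3%, 43.4%, 44.7% and 54.3%. On average most neighbours of Tnmd cells were thus not Tnmd cells. The exceptions were cells with 10 or more Tnmd UMIs in quadriceps and with 20 or more in diaphragm. The median over Tnmd cells was 15% in quadriceps and 35% in diaphragm. In quadriceps 10 of 77 Tnmd cells, and in diaphragm 13 of 221, had no Tnmd cell among their neighbours.

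To compare shares of cells at 1 depth, 3000 UMIs were drawn at random from each cell, which left out 1 Tnmd and 8 Tnmd-0 cells of quadriceps and 1 Tnmd-0 cell of diaphragm. A Lox UMI was seen in 59.2% of quadriceps Tnmd cells (interval 47.3% to 70.4%) against 12.6% of Tnmd-0 cells (11.0% to 14.3%), and in 54.8% (47.9% to 61.4%) against 25.0% (22.7% to 27.5%) in diaphragm. Without thinning the shares of Lox were 68.8% and 25.5%, and 85.1% and 50.8%. Mfap4 was in 31.6% (21.4% to 43.3%) against 5.45% of cells in quadriceps but in 92.3% (88.0% to 95.5%) against 55.7% in diaphragm. Fmod was in 18.4% (10.5% to 29.0%) against 0.558% in quadriceps and in 12.2% (8.21% to 17.3%) against 1.48% in diaphragm. Most Tnmd cells therefore showed no Fmod UMI at this depth. Without thinning, 20 of 77 and 43 of 221 Tnmd cells had an Fmod UMI.

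Ccl11 was in 35.5% (24.9% to 47.3%) of quadriceps Tnmd cells against 73.7% of Tnmd-0 cells, and in 6.79% (3.85% to 10.9%) against 44.1% in diaphragm. Wisp2 was in 47.4% against 7.62% of quadriceps cells and in 10.9% (7.08% to 15.7%) against 4.91% of diaphragm cells. In the Ptprc cells, thinned alike, the shares were 2.36% and 0% for Lox, 1.57% and 6.67% for Mfap4, 0.787% and 0% for Fmod, 1.57% and 0% for Ccl11 and 0.787% and 3.33% for Wisp2, over 127 quadriceps and 30 diaphragm cells. A share of 0 of 30 allows up to 11.6% by the exact binomial interval. The Ptprc cells were chosen without Pdgfra and below the Dcn limit, so these are not the shares of all cells with Ptprc.

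**Figure D4:**
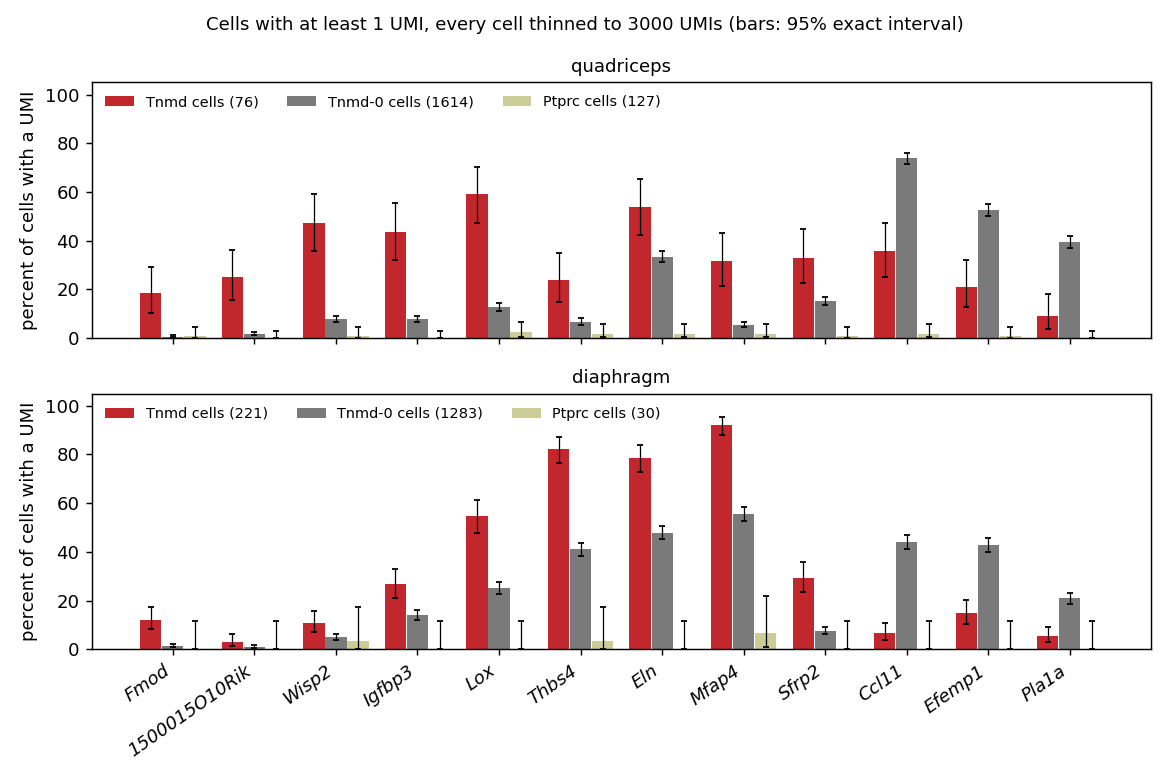
Percentage of cells with at least 1 UMI of 12 genes after thinning to 3000 UMIs, in Tnmd cells (red), Tnmd-0 cells (grey) and Ptprc cells (olive) of quadriceps (top) and diaphragm (bottom), with 95% exact binomial intervals. The Ptprc cells were chosen without a Pdgfra UMI and below the Dcn limit of the gate. Lox is seen in 59.2% and 54.8% of Tnmd cells, Mfap4 in 31.6% and 92.3%, and Ccl11, Efemp1 and Pla1a are seen in fewer Tnmd cells than Tnmd-0 cells in both tissues.

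Some genes passed the limit in 1 muscle only and were within 1.5-fold in the same direction, or opposite, in the other. In quadriceps the highest folds of this kind were those of Pappa2, a protease of insulin-like growth factor binding proteins, Lcn2 (lipocalin 2), Lect1 (chondromodulin, the closest relative of Tnmd) and Angpt4, a Tek ligand. Pappa2 was at 153 against 1.48 CPM, Lcn2 at 151 against 4.01 CPM, Lect1 at 97.1 against 2.27 CPM and Angpt4 at 108 against 3.22 CPM. In diaphragm Tnmd cells these genes were at 0, 0.960, 2.88 and 1.92 CPM. Cenpf, a mitotic kinetochore gene, also passed at 70.2 against 3.11 CPM, but all of its UMIs came from 1 cell, which also held all of the UMIs of the proliferation marker Mki67, and without that cell its fold was -2.04. Lower genes of this kind in quadriceps were Cd74 (an antigen presentation gene, 0.962 against 41.7 CPM), Ccl2 (5.77 against 138 CPM), Wnt2 and Pthlh (parathyroid hormone-like hormone, 6.73 against 53.3 CPM). Under the alternative settings described below the log2 fold of Ccl2 in diaphragm ran from -4.89 to 1.13. Its call in quadriceps alone was thus not kept in all of them. The quadriceps log2 fold of Cd74 shrank to -0.91 in these settings, so the call of Cd74 was not kept in all of them either.

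In diaphragm the genes of this kind were Pdlim3, an actin-binding protein (50.9 against 11.3 CPM), Lbh, a transcription cofactor (88.4 against 32.2 CPM), and Avpr1a, a vasopressin receptor (117 against 45.8 CPM). Hlf, a circadian transcription factor, was at 50.3 against 22.1 CPM and Enpp1, a pyrophosphate-generating enzyme, at 51.2 against 22.7 CPM. In quadriceps Tnmd cells these 5 genes were at 3.85, 10.6, 6.73, 9.62 and 24.0 CPM. The call in diaphragm alone was lost for Pdlim3 and Lbh without the mitochondrial limit, where both were past 2-fold higher in quadriceps too (Pdlim3 at a log2 fold of 2.72). It was also lost after thinning every cell to 5000 UMIs before the rule, with quadriceps folds of 1.25 and 1.03, and for Pdlim3 with at least 5 Tnmd UMIs (1.08). In the quadriceps cells over that limit Pdlim3 was at 194 against 31.5 CPM and Lbh at 235 against 51.0 CPM. The lower ones were Slpi, a protease inhibitor (1.60 against 45.0 CPM), Ptx3, a pentraxin (4.48 against 47.6 CPM), Apoe (28.8 against 150 CPM), C4b and Cxcl14, a chemokine (134 against 524 CPM). In quadriceps Cxcl14 was at 1032 against 1435 CPM and Apoe at 240 against 190 CPM. Under the alternative settings the quadriceps log2 fold of Avpr1a reached 1.53 and that of Cxcl14 reached -1.17. The calls of Avpr1a and Cxcl14 in diaphragm alone were thus not kept in all of them either. The diaphragm log2 fold of Enpp1 fell to 0.86 in these settings, so the call of Enpp1 was also not kept in all of them. In the quadriceps cells over the mitochondrial limit Cxcl14 was at 517 against 2426 CPM.

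Tnmd cells of the 2 muscles were then compared with each other. Of 6005 genes tested, 234 were past 2-fold higher in diaphragm (3.9%) and 258 in quadriceps (4.3%). Many of these also separated the Tnmd-0 cells of the muscles: 135 of the 234 (57.7%) and 86 of the 258 (33.3%) were past 2-fold the same way there, while 56 and 102 had a fold under 1.5 that way. Wt1, a transcription factor of mesothelium and visceral mesenchyme, had no UMI in quadriceps Tnmd cells and was at 101 CPM in 142 of 221 diaphragm cells, at least 35.2-fold higher, with 96.7 CPM in diaphragm Tnmd-0 cells. Gata6, a zinc finger factor, was at 0.962 CPM in quadriceps and 55.4 CPM in diaphragm Tnmd cells. Hoxc10, a posterior Hox gene, was at 92.3 CPM in quadriceps and at 0 in diaphragm, at least 96.1-fold higher in quadriceps, and the limb factor Tbx15 was at 55.8 and 0.320 CPM. A fold given as at least a value was set against a floor of 3 UMIs over the class at 0, with the counting error of the other level left aside. The log2 folds (diaphragm over quadriceps) in Tnmd cells and Tnmd-0 cells were 6.68 and 6.61 for Wt1, -6.54 and -6.26 for Hoxc10 and -5.43 and -4.72 for Tbx15. For Gata6 they were 4.85 and 2.98. A level of 0.962 CPM in quadriceps Tnmd cells is 1 UMI, so the size of a fold set against it is uncertain.

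Further genes higher in diaphragm Tnmd cells by the naming rule were Gm12840 (154 against 0.962 CPM), Col6a5, a collagen VI chain (65.9 against 0.962 CPM), Slc6a2, a noradrenaline transporter (46.1 against 0.962 CPM), Slit2, an axon guidance ligand (88.4 against 2.88 CPM), Hoxb4 (40.7 against 0.962 CPM, a log2 fold of 4.41 against 2.12 in Tnmd-0 cells) and Fosb. Fosb is an immediate early gene, at 380 CPM in diaphragm and 17.3 CPM in quadriceps Tnmd cells. Of 20 immediate early genes tested 16 were past 2-fold higher in diaphragm Tnmd cells, and of 13 heat shock genes 8 were, with none higher in quadriceps in either list. Summed, the immediate early genes were at 4540 CPM in quadriceps and 20335 CPM in diaphragm Tnmd cells, and at 5528 and 22360 CPM in Tnmd-0 cells. The part of handling of the tissue in these values was not tested. Ccl2, a monocyte chemokine, was at 187 CPM in diaphragm Tnmd cells but came from 14 of 221 cells, 1 of which held 37.9% of its UMIs.

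Genes higher in quadriceps Tnmd cells were, besides Pappa2, Hoxc10 and Lcn2, the Hox gene Hoxc9 (62.5 CPM against 0, at least 65.1-fold), Agt, angiotensinogen (60.6 CPM against 0, at least 63.1-fold), the BMP antagonist Chrdl1 (79.8 against 0.320 CPM) and Emb, embigin, an adhesion glycoprotein (92.3 against 0.640 CPM). Among the tendon and matrix genes the muscles divided the members. Thbs4 and Mfap4 were higher in diaphragm Tnmd cells, with log2 folds of 1.37 (interval 1.29 to 1.45) and 2.54 (2.40 to 2.68), yet by less than in Tnmd-0 cells (3.66 and 3.82). Lox, Igfbp3 and Wisp2 were higher in quadriceps Tnmd cells, with folds of -1.69 (-1.82 to -1.57), -1.75 (-1.89 to -1.61) and -3.13 (-3.38 to -2.92), while in Tnmd-0 cells they were 0.82, 1.17 and -0.81. Lox and Igfbp3 thus had opposite tissue directions in the classes, and Eln (0.57) and Cilp (0.32) were within 2-fold between the muscles in Tnmd cells.

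**Figure D5:**
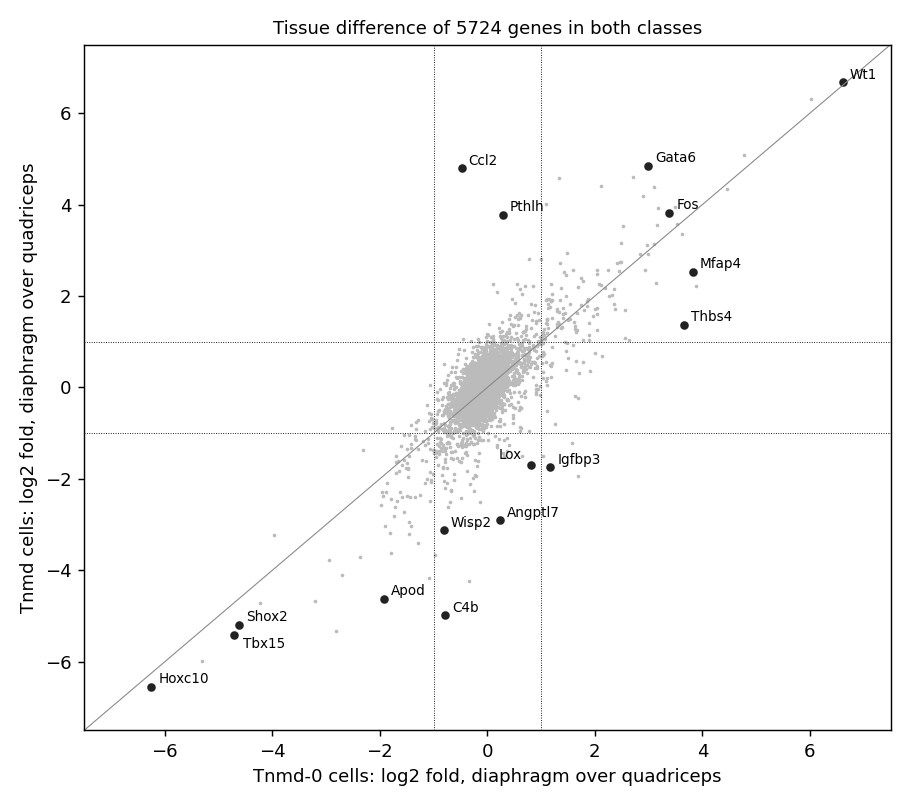
Log2 fold of diaphragm over quadriceps for the 5724 genes tested in both classes, Tnmd-0 cells on the x axis and Tnmd cells on the y axis, each point a gene, with dotted lines at 2-fold and a line of equality. Wt1 and Hoxc10 lie near the line, at 6.68 and -6.54 in Tnmd cells, Lox and Igfbp3 lie below 0 in Tnmd cells and above 0 in Tnmd-0 cells, and Ccl2 and C4b lie far from the line.

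Cells with at least 2 Tnmd UMIs and at least 2 UMIs of the tenocyte genes Chad and Kera were set beside the Tnmd cells, at any mitochondrial share and with no limit on Pdgfra or Dcn, a setting added after the data were seen. There were 94 such cells in quadriceps and 0 in diaphragm. Their Chad and Kera levels of 1907 and 1454 CPM were fixed by that choice. The rule asked for Pdgfra in the Tnmd cells but not in these cells, so the choice of cells also bears on the Pdgfra levels below. Scx was at 569 CPM there against 11.5 CPM in quadriceps Tnmd cells, Fmod at 11037 against 638 CPM, Comp at 3029 against 149 CPM and 1500015O10Rik at 1329 against 236 CPM. Pdgfra was at 77.5 against 512 CPM, Pi16, a FAP surface gene, at 137 against 799 CPM, Igfbp3 at 90.8 against 879 CPM, and Ly6a at 477 against 3202 CPM. Lox was at 1315 against 1031 CPM, Col1a1 at 14566 against 4495 CPM, Mfap4 at 1303 against 448 CPM and Wisp2 at 355 against 597 CPM. A further 11 quadriceps and 1 diaphragm gate cells had at least 2 Tnmd UMIs together with a Chad or Kera UMI and were left out by the rule. For Scx, Fmod, Comp, 1500015O10Rik, Lox, Mfap4, Col1a1 and Pi16 the Tnmd cells of quadriceps lay between the cells with at least 2 Chad and Kera UMIs and the Tnmd-0 cells. For Igfbp3, Wisp2 and Ly6a they lay above both. For Pdgfra, which the rule asked for in Tnmd and Tnmd-0 cells alike, they differed from the Tnmd-0 cells by less than the counting interval.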

How the data were processed

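The authors made 3′ single-cell libraries with the 10x Genomics Chromium kit and aligned the reads to mm10. Per the labels, Cell Ranger 3.0.0 and Seurat were used. The deposited values were raw UMI counts per gene and barcode for 27998 genes, without normalization, for barcodes kept by the authors' cell calling. Droplet libraries hold free RNA, so a UMI in a cell need not come from it.

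Here counts were summed per class and scaled to CPM, with a pseudocount of 1 CPM for log2 folds, a minimum mean of 20 CPM and a limit of 2-fold. Intervals are exact (Poisson for CPM, conditional binomial for ratios, Clopper-Pearson for shares). The script was tested on simulated data. Python 3.11.15, numpy 2.4.6, scipy 1.17.1, pandas 2.3.3, scikit-learn 1.9.0, matplotlib 3.10.9 and scanpy 1.11.5 (with Scrublet) were used. Doublet calls were not removed in the values reported: Scrublet called 98 of 5159 quadriceps and 4 of 2499 diaphragm barcodes (1.90% and 0.160%), and no Tnmd cell. The diaphragm share is low enough that the caller may not have worked there. Gene positions came from GENCODE M21 and promoters from RefSeq, both on GRCm38.

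The members, gene lists and alternatives were chosen with earlier results of these data known. Genes were named by rule: the 6 markers, 2 to 4 examples per list, the 10 per direction with the largest smaller fold among those past 2-fold in both tissues, the 5 per direction and tissue past 2-fold there and under 1.5-fold that way in the other, the 10 per direction between tissues, and genes past 2-fold in opposite directions. Genes named as exceptions to this were chosen after their values were seen: the growth factors, Igfbp5, Angptl7, Il6, Fbn1 and the genes of the comparison with Chad or Kera cells. Some genes that the rule names are not reported here. No sample was left out.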

Additional observations from a re-analysis of the deposited data

Results flagged for a closer look

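Past 2-fold in opposite directions in the tissues were 4 genes, and the difference was not tested, since each tissue had 1 library. Apod, a lipocalin of fibroblasts, had a log2 fold of Tnmd cells over Tnmd-0 cells of 1.36 in quadriceps (3015 against 1173 CPM) and of -1.34 in diaphragm (121 against 307 CPM). C4b, complement component 4B, had 1.91 and -2.29. Sult1e1, an oestrogen sulfotransferase, had 2.55 (60.6 against 9.49 CPM) and -1.07 (15.0 against 32.7 CPM), from 10 Tnmd cells with a UMI in either tissue. Tmem176a, a membrane channel-like protein, had 2.40 (246 against 45.9 CPM) and -1.49 (12.2 against 36.1 CPM). Under the alternative settings described below the fold of Apod in quadriceps shrank to 0.93 and that of Sult1e1 in diaphragm to -0.80. The opposite calls of Apod and Sult1e1 were thus not kept in all of them.

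Cells outside the main comparison were also measured: 30 quadriceps and 105 diaphragm barcodes met every limit of the rule but the mitochondrial one. They were set against the 487 and 318 Tnmd-0 cells over that limit, an alternative added after seeing the data. These cells were outside the rule only by their mitochondrial share. They met the same limits on Tnmd, Pdgfra, Dcn, Chad and Kera and came from the same libraries, so they are no independent check. In quadriceps their medians were 9.15% mitochondrial UMIs and 11462 UMIs, against 6.10% and 8259 in the Tnmd-0 cells over the limit. In diaphragm they were 5.78% and 12152, against 5.62% and 10591.5. Of the 139 genes higher in quadriceps, 106 could be tested in them, 87 had the same sign and 42 were past 2-fold, where 5.83% of all genes tested passed in that direction. Of the 52 higher in diaphragm, 51 could be tested, 49 had the same sign and 35 were past 2-fold, against 1.19% of all genes. Of the lower genes, 86 of 100 had the same sign and 47 were past 2-fold in quadriceps (4.29% of all genes), and 49 of 49 and 37 in diaphragm (1.51%). Fmod had folds of 4.73 and 2.10 in these cells, Lox 2.24 and 1.26, and Thbs4 3.09 and 1.57. The markers were not all alike: in quadriceps Mfap4 had a fold of -0.02 and Wisp2 of 0.87, and in diaphragm Wisp2 had -0.32 and 1500015O10Rik 1.95. Other named genes under the limit in these cells included C1qtnf3 in quadriceps (-0.18, from 4 UMIs), Comp in diaphragm (-0.14), Angptl7 in quadriceps (0.22), Sbsn in diaphragm (-0.26) and Lifr in quadriceps (0.04). Lect1 had no UMI in these cells of quadriceps. Of the 4 genes above, Apod had -0.51 and -1.15 and so was lower in both tissues, C4b had 2.05 and -2.52, Sult1e1 2.07 and 0.51, and Tmem176a 0.70 and -0.47.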

How the results depend on the processing

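With 1 library per tissue no replicate could be left out. No paired analysis was possible because each group had 1 sample. The folds over Tnmd-0 cells of 46 genes were followed under 15 alternatives: the markers other than Tnmd, the top-ranked named genes and those past 2-fold in opposite directions. Other named genes and the folds between tissues were not followed. Folds under 2-fold in the main setting are not in the count that follows. Of 76 folds past 2-fold, 1103 of 1140 values were still past 2-fold in the same direction, 33 had the same direction under 2-fold and 4 reversed. These were Cenpf in quadriceps at -2.04 with Tnmd of at least 5 UMIs, at -2.04 without its top cell, a setting added after seeing the data (that cell held all 73 UMIs), and at -2.40 after thinning to 5000 UMIs before the rule, and Slpi in diaphragm at 0.70 after that thinning. Counts of genes moved with the level filter and with the Tnmd limit. The median-of-ratios scaling shifted folds by -0.08 in quadriceps and 0.01 in diaphragm, and 27 of the 27 shared higher and 28 of the 30 shared lower genes remained.

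With a filter of 1 UMI in each class, 606 genes were higher and 520 lower in quadriceps, 217 and 250 in diaphragm, and 77 and 74 in both, with 658 higher in diaphragm and 848 in quadriceps between tissues. With a mean of at least 100 CPM these counts were 54 and 29, 14 and 18, 9 and 6, and 79 and 78. With Tnmd of at least 5 UMIs they were 210 and 294, 97 and 123, and 50 and 60, of which 26 and 27 were among the shared genes of the rule. With Tnmd of at least 1 UMI, 57 genes were lower in quadriceps, 31 higher in diaphragm, and 15 higher and 11 lower in both. After thinning every cell to 5000 UMIs, with a Dcn limit of 20, they were 256 and 388, 122 and 169, 48 and 57, and 503 and 502.

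Tnmd cells were 7.63% of quadriceps and 18.1% of diaphragm gate cells with Tnmd of at least 1 UMI, 2.15% and 7.27% with at least 5, 2.82% and 7.29% after thinning to 5000 UMIs, and 16.2% in diaphragm without a mitochondrial limit. The share was higher in diaphragm in each of these settings with both tissues. Thinned to 1000 UMIs, the shares of Tnmd cells of quadriceps and diaphragm with a UMI were 15.6% and 0% for 1500015O10Rik, 26.0% and 13.6% for Igfbp3, 37.7% and 24.9% for Lox, 14.3% and 78.3% for Mfap4, and 33.8% and 1.81% for Wisp2. The other counts stayed within 1.5 times, and the other shares and the neighbour shares within their intervals. Depth limits the quadriceps values most, where 1 UMI over the 77 Tnmd cells is 0.962 CPM. The causes of these moves were not tested, except that stricter filters test fewer genes and limits on Tnmd keep other cells.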

Other observations

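Counts in the lists below are read against all genes tested, of which 2.28% were higher and 1.95% lower in quadriceps and 0.879% higher and 1.23% lower in diaphragm. A single gene past the limit in a list is a value of that gene and no result about the list. Of 11 genes of the insulin-like growth factor system, 2 were past 2-fold higher (Igfbp3 and Pappa2) and 1 lower (Igfbp5) in quadriceps, and none was higher and 1 lower (Igfbp5) in diaphragm. Of 17 basement membrane genes tested in quadriceps 2 were lower, Col15a1 (199 against 449 CPM) and Lamb1 (102 against 251 CPM), and of 16 in diaphragm none was. Hyaluronan genes had 1 of 6 lower in quadriceps and 3 of 7 in diaphragm. Has2, a hyaluronan synthase, was lower in both. Has1, another synthase, was at 48.7 against 210 CPM in diaphragm, and Tnfaip6, which links hyaluronan to proteins, at 143 against 402 CPM there and at 67.3 against 66.9 CPM in quadriceps. Ugdh, which makes a hyaluronan precursor, was lower in both tissues, at 142 against 317 CPM and 175 against 476 CPM.

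Among genes of adhesion and mechanics, 3 of 15 were higher in quadriceps and 2 of 14 in diaphragm, with none lower. Piezo2, a mechanically gated channel, was at 69.1 CPM in the Tnmd cells of diaphragm, in 107 of 221 cells, with a log2 fold over Tnmd-0 cells of 1.81, and at 23.1 against 6.91 CPM in quadriceps, where it was under the level filter. Of 9 genes of the FBN1 side of mouse FAPs 2 were lower in quadriceps (Cd55 and Procr) and 0 of 8 passed in diaphragm. Of the LUM side 1 of 12 was higher (Apod) and 2 lower in quadriceps, and 0 of 11 were higher and 3 lower in diaphragm. Among patterning transcription factors 0 of 17 passed in quadriceps, while in diaphragm 1 of 18 was higher (Meox1, 299 against 145 CPM) and 1 lower (Sox9, 18.2 against 41.2 CPM). None of 6 Hox genes tested passed in either tissue, nor did any of 12 mitochondrially encoded genes of the respiratory chain.

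Of 22 genes of collagen crosslinking and processing Lox alone passed in either tissue. Adipogenic genes had 1 of 6 higher in quadriceps (Dlk1, in 6 of 77 cells) and 0 of 5 in diaphragm. Of the matrix proteases and their inhibitors 1 of 16 was higher and 1 lower in quadriceps, and 0 of 17 higher and 1 lower in diaphragm. Adamtsl3 was the lower gene in both. Of the fibril-associated and other interstitial collagens 3 of 9 were higher in quadriceps and 2 of 10 in diaphragm, with none lower. Col12a1 was at 131 against 30.9 CPM and 204 against 88.7 CPM. Of the CCN family, matricellular proteins, Wisp2 was higher in both tissues and Nov lower in quadriceps (125 against 343 CPM), of 4 genes tested in each. Of glycan and sulphate metabolism 2 of 13 were higher and 1 lower in quadriceps, and 0 of 11 higher and 1 lower in diaphragm, the lower gene being Ugdh in both. Of nerve ligands 2 of 11 were higher in quadriceps and 2 of 8 in diaphragm. Sema3d, a guidance ligand, was higher in both, at 54.8 against 18.4 CPM and 57.9 against 25.7 CPM.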
